A study of Mus musculus with 16 samples.

Results

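The interaction of isoproterenol and Cebpb siRNA was measured in RAW 264.7 cells, a mouse macrophage-like line, as the isoproterenol effect in Cebpb siRNA cells minus the isoproterenol effect in control siRNA cells. All 16 libraries of the series entered it. They form 4 groups of 4: Cebpb siRNA with isoproterenol, Cebpb siRNA alone, control siRNA (NegCon) with isoproterenol, and control siRNA alone. Every culture received an siRNA at 25 nM for 24 h, so no group is untransfected, and Cebpb was targeted with 1 siRNA product. Neither the isoproterenol dose nor the time under it is given in the sources used here. Each group holds 2 replicates from each of 2 experiments, and its 4 libraries are biological replicates according to the design text. Of 52636 genes listed, 11141 lay above the deposited floor of 1 RPM (reads of a gene scaled to all reads of its library) in at least 4 libraries and were tested, and 9749 of them lay above it in all 16 libraries. Values in a group are given below as experiment 1 replicates 1 and 2, then experiment 2 replicates 1 and 2.

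Isoproterenol is a synthetic catecholamine that activates beta-adrenergic receptors. In macrophages these receptors raise cyclic AMP, protein kinase A phosphorylates CREB, and a set of immediate early genes that includes the Nr4a nuclear receptors is transcribed. Cebpb encodes C/EBPbeta, a leucine zipper transcription factor of the myeloid lineage that activates acute-phase, antimicrobial and cytokine genes and is itself a CREB target. A positive interaction means that the isoproterenol effect, as a signed value, was larger in Cebpb siRNA cells, and a negative one that it was smaller there or ran the other way.

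The libraries held 9.42 to 25.17 M reads, of which 5.81 to 15.9 M reads lay in genes, so the floor stood at 9.4 to 25.2 reads. Genes at the floor are listed at 0, and 1392 of the genes tested were at 0 in at least 1 library. All 9 macrophage markers lay above the floor in all 16 libraries, while all B cell, fibroblast and epithelial markers were listed at 0 throughout. Of 6 dendritic cell markers 4 were at 0 throughout, and Zbtb46 and Batf3 summed to 4.26 to 6.57 and 3.61 to 7.94 RPM in Cebpb siRNA cells with and without isoproterenol, against 7.35 to 8.73 and 9.35 to 10.6 RPM in control siRNA cells. Of 8 T and NK cell markers 7 were at 0 throughout, and Lck had 2.40 to 3.51 and 2.70 to 4.03 RPM in Cebpb siRNA cells, against 4.65 to 6.20 and 3.83 to 5.67 RPM in control siRNA cells. The part of these 3 genes in the results was not tested. Replicate pairs differed by more than the sampling noise of their reads, with a chi-square per degree of freedom of 4.92 to 13.3, so no library was counted as a copy of another. Unmapped reads made up 5.90 to 7.36% and 6.32 to 7.61% in Cebpb siRNA cells with and without isoproterenol, against 5.07 to 5.81% and 5.14 to 5.94% in control siRNA cells. The summed mitochondrial mRNAs averaged 6283 ± 295, 5046 ± 113, 5701 ± 232 and 5174 ± 251 RPM (SD, n = 4 each) in Cebpb siRNA cells with and without isoproterenol and in control siRNA cells with and without it. This sum moved with isoproterenol by more in Cebpb siRNA cells, and its part in the results below was not tested. A change in the number of responding cells and a change in RNA per cell cannot be told apart in bulk libraries.

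The siRNA target was lower with Cebpb siRNA both with and without isoproterenol. Cebpb stood at 28.5, 27.6, 25.8 and 23.9 RPM in Cebpb siRNA cells with isoproterenol and at 11.8, 25, 21.8 and 33.1 RPM in Cebpb siRNA cells alone. In control siRNA cells it stood at 101, 78, 99.1 and 90.6 RPM with isoproterenol and at 74.5, 61.3, 81.4 and 87.3 RPM without. Every Cebpb siRNA library lay below every control siRNA library, and within each siRNA the ranges with and without isoproterenol overlapped. The siRNA effect was -1.72 ± 0.19 (log2 ± SE) under isoproterenol and -1.72 ± 0.19 without it. The interaction for Cebpb itself was -0.00 ± 0.27, with a 95% interval of -0.56 to 0.55 that leaves room for a moderate change either way. Spread over all genes, Cebpb siRNA changed 6862 genes (61.6%) under isoproterenol, 3548 higher (31.8%) and 3314 lower (29.7%). Without isoproterenol it changed 6779 genes (60.8%), 3484 higher (31.3%) and 3295 lower (29.6%), at an adjusted p under 0.05 (limma with Benjamini-Hochberg adjustment, used for all log2 values below).

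Isoproterenol changed 605 genes (5.43%) in Cebpb siRNA cells, of which 311 were higher (2.79%) and 294 lower (2.64%). In control siRNA cells it changed 172 genes (1.54%), 125 higher (1.12%) and 47 lower (0.422%). With the values as deposited, without rescaling, the splits were 455 higher and 153 lower in Cebpb siRNA cells and 145 higher and 27 lower in control siRNA cells. These counts do not show that the effects differ, which is what the interaction tests. It passed the threshold for 25 genes (0.224%), 12 higher (0.108%) and 13 lower (0.117%), while 712 genes had an unadjusted p under 0.05. With the values as deposited the split was 13 higher and 8 lower. The median interaction over all genes tested was -0.00 and the median SE 0.149, and the smallest interaction that was called was 0.375 in size. Smaller differences between the arms were therefore mostly not detectable with 4 libraries a group.

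**Figure D1:**
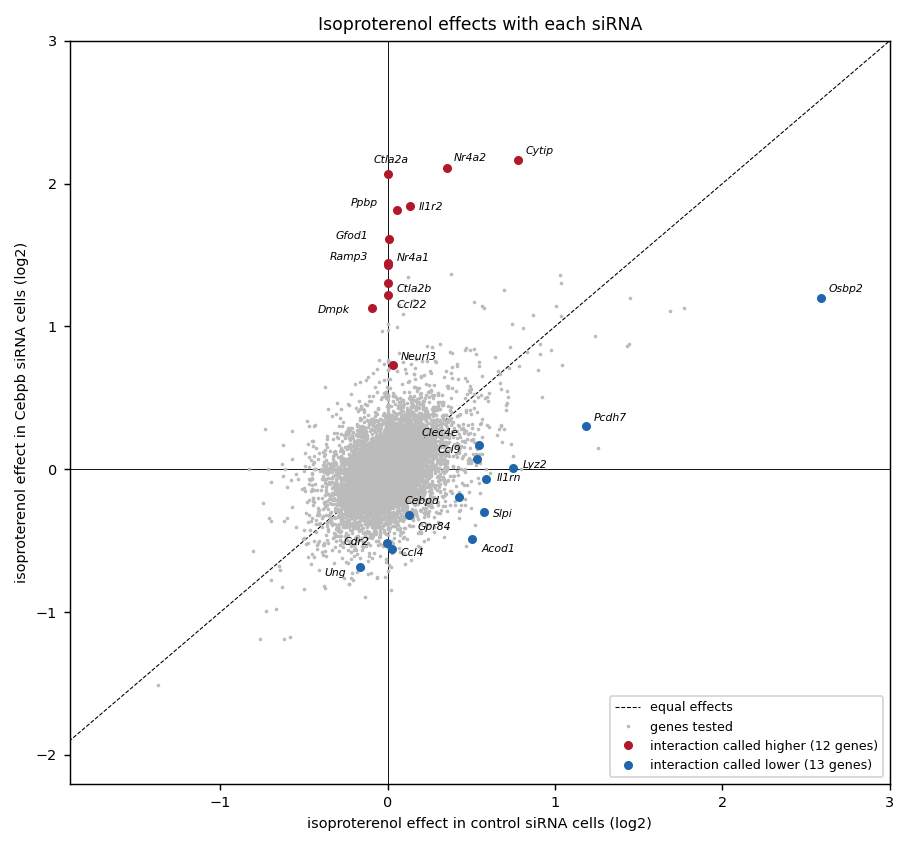
Isoproterenol effect in Cebpb siRNA cells (y axis) against that in control siRNA cells (x axis), both as log2 change, 1 point a gene, with the line of equal effects. The 12 genes called higher lie above the line, and the 13 called lower lie below it.

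The isoproterenol calls in each siRNA arm were counted for the genes called higher and for the genes called lower. Of the 12 called higher, isoproterenol was called in Cebpb siRNA cells alone for 11 and in both siRNA arms for 1. Of the 13 called lower, it was called in Cebpb siRNA cells alone for 5, in control siRNA cells alone for 5 and in both for 3. All 13 lower genes lay above the floor in all 16 libraries, against 3 of the 12 higher genes (Nr4a2, Cytip and Neurl3), and 4 of the higher genes were listed at 0 in all 8 control siRNA libraries. A gene at the floor in control siRNA cells can show no isoproterenol effect there. The counts of the higher and lower genes therefore do not show that isoproterenol acted differently on them. When the fit was restricted to genes above the floor in all 16 libraries, 17 of 9749 genes (0.174%) were called, 4 higher (0.041%) and 13 lower (0.133%). The fourth higher gene there was Havcr2. In the fit over all genes tested, 4 of the 12 higher genes (Nr4a1, Ramp3, Ctla2a and Ctla2b) lay above the floor in under 4 libraries outside the group with both treatments. They entered the test only through the group where they are high, so their calls are a description and no p is given for them, which leaves 8 higher genes whose test did not depend on that group.

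The cyclic AMP-responsive nuclear receptors Nr4a2 and Nr4a1 were among the genes called higher. Nr4a2 (Nurr1) is an orphan nuclear receptor whose gene lies on the minus strand of chromosome 2 at positions 57106830 to 57124003 (GRCm38), and Nr4a1 (Nur77) lies on the plus strand of chromosome 15 at 101254269 to 101274795. Slpi (minus strand, chromosome 2, 164354070 to 164389095) and Clec4e (minus strand, chromosome 6, 123281789 to 123289870), described further on, were called lower. The 250 bases before the RefSeq start of each (GRCm38.p6) are shown 5′ to 3′ on the gene's own strand, because the 4 promoters carry the words of the 2 regulators in this design. Capitals mark TGACG, the core of the cAMP response element, on either strand in the Nr4a promoters, and TTGCNNAA, a C/EBP recognition word, on either strand in the promoters of Slpi and Clec4e. The regions are chr15:101266596-101266845 for Nr4a1, chr2:57124004-57124253 for Nr4a2, chr2:164356508-164356757 for Slpi and chr6:123289872-123290121 for Clec4e.
Nr4a1: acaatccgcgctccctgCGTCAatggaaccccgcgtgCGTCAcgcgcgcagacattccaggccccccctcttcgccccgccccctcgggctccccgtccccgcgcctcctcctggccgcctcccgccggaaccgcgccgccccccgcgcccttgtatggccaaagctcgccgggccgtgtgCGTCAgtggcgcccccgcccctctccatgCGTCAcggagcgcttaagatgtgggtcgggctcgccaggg
Nr4a2: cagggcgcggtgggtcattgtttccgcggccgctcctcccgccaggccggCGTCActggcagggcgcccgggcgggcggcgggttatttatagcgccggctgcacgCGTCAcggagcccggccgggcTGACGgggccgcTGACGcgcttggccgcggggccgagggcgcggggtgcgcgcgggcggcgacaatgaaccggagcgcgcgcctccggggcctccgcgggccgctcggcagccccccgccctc
Slpi: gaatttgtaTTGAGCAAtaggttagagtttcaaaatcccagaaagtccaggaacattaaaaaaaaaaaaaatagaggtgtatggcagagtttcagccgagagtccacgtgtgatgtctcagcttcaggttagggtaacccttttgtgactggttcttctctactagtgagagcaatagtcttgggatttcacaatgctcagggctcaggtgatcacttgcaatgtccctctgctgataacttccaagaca
Clec4e: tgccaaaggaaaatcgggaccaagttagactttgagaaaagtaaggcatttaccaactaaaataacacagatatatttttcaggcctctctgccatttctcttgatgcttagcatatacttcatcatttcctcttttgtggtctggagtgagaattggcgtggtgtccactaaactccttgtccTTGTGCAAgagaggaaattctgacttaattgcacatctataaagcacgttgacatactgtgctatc
The Nr4a1 window holds 4 copies of TGACG, which begin 233, 213, 69 and 40 bases before the start, and the Nr4a2 window holds 4, at 200, 144, 123 and 111 bases. The RefSeq table matched 11 of the 12 genes called higher, with 12 promoters, and 11 of the 13 called lower, with 15 promoters; Gfod1, Ccl4 and Cebpd had no entry. TGACG occurred in 6 of the 12 promoters of the higher genes, which belong to Nr4a1, Nr4a2, Ctla2a (listed with a pair of starts), Ctla2b and Neurl3, and in 0 of the 15 promoters of the lower genes. Of these genes, Nr4a1, Ctla2a and Ctla2b were tested only because of the libraries with both treatments. The windows of the Ctla2a pair overlap and hold the same copy of TGACG. The count is therefore a description and no support for a difference between the sets. TGACG occurred in 27.8% of the 10747 promoters listed for 8428 of the genes tested and in 17.8% of all RefSeq promoters. The full element TGACGTCA, which contains TGACG, occurred in none of the promoters of either set, against 2.74% of the promoters of genes tested. TTGCNNAA begins 241 bases before the start of Slpi and 66 bases before that of Clec4e. It occurred in 2 of 15 promoters of the lower genes, in 1 of 12 of the higher genes (Cytip) and in 7.57% of those of genes tested. These matches are letters in a window of 250 bases, not measured binding.

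Nr4a2 rose with isoproterenol in Cebpb siRNA cells and not detectably in control siRNA cells. It stood at 16.7, 16.8, 17.1 and 17.3 RPM in Cebpb siRNA cells with isoproterenol and at 3.53, 3.54, 3.3 and 4.99 RPM in Cebpb siRNA cells alone. In control siRNA cells it stood at 4.16, 4.14, 4.16 and 4.54 RPM with isoproterenol and at 2.89, 2.94, 4.27 and 3.08 RPM without. Only the cultures with both treatments were high, and the other 3 groups overlapped one another. Isoproterenol raised Nr4a2 by 2.11 ± 0.14 in Cebpb siRNA cells (log2 ± SE, adjusted p = 3.16e-09), while in control siRNA cells its estimate was 0.35 ± 0.14 (adjusted p = 0.291). The interaction was 1.76 ± 0.20 (adjusted p = 7.22e-05), with 1.74 in experiment 1 and 1.77 in experiment 2.

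Nr4a1 was detected almost only with both treatments, at 3.79, 2.98, 2.76 and 2.4 RPM. It was listed at 0 in 3 of the 4 libraries with Cebpb siRNA alone, at 1.06 RPM in the other, and at 0 in all 8 control siRNA libraries. The groups did not overlap, but the levels were close to the floor, so its fitted change depends on the floor and is not given as a fold. Nr4a1 passed the filter on low values only through the libraries with both treatments, so its call is no support for a difference. It was not called when log2(RPM + 1) replaced the common floor.

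Cytip had the largest positive interaction of the called genes whose mean reached 10 RPM. It encodes the cytohesin-interacting protein, which regulates leukocyte adhesion. Its levels were 41.2, 45.4, 49.2 and 47.3 RPM in Cebpb siRNA cells with isoproterenol, against 7.53, 11.1, 10.5 and 10.4 RPM in Cebpb siRNA cells alone. Control siRNA cells had 9, 10.1, 7.91 and 7.69 RPM with isoproterenol, against 5.14, 4.61, 5.26 and 4.65 RPM without. Every library with 1 of the treatments lay above every library with neither, and those with both lay far above all others. Isoproterenol raised it by 2.17 ± 0.12 under Cebpb siRNA (adjusted p = 1.79e-10) and by 0.78 ± 0.12 under control siRNA (adjusted p = 0.000389). The interaction was 1.39 ± 0.16 (adjusted p = 0.000122). On the scaled levels, both treatments together gave 46.2 RPM, where the sum of the single effects would give 13.9 RPM and the product of the single folds 17.9 RPM.

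Neurl3, an E3 ubiquitin ligase, responded to isoproterenol in Cebpb siRNA cells from a level that the siRNA had already raised. Cebpb siRNA cells had 45.5, 46, 61.9 and 55.1 RPM with isoproterenol and 27.7, 30.6, 31.7 and 30.4 RPM without. Control siRNA cells had 10.2, 10.3, 10.6 and 11.1 RPM with isoproterenol and 9.71, 9.7, 12.1 and 9.07 RPM without. The Cebpb siRNA groups did not overlap each other, and the control siRNA groups did. The isoproterenol effect was 0.73 in Cebpb siRNA cells and 0.03 in control siRNA cells, and the interaction was 0.69 ± 0.13 (adjusted p = 0.0139). Without the control siRNA library with isoproterenol of experiment 2 replicate 1, its adjusted p was 0.0507.

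**Figure D2:**
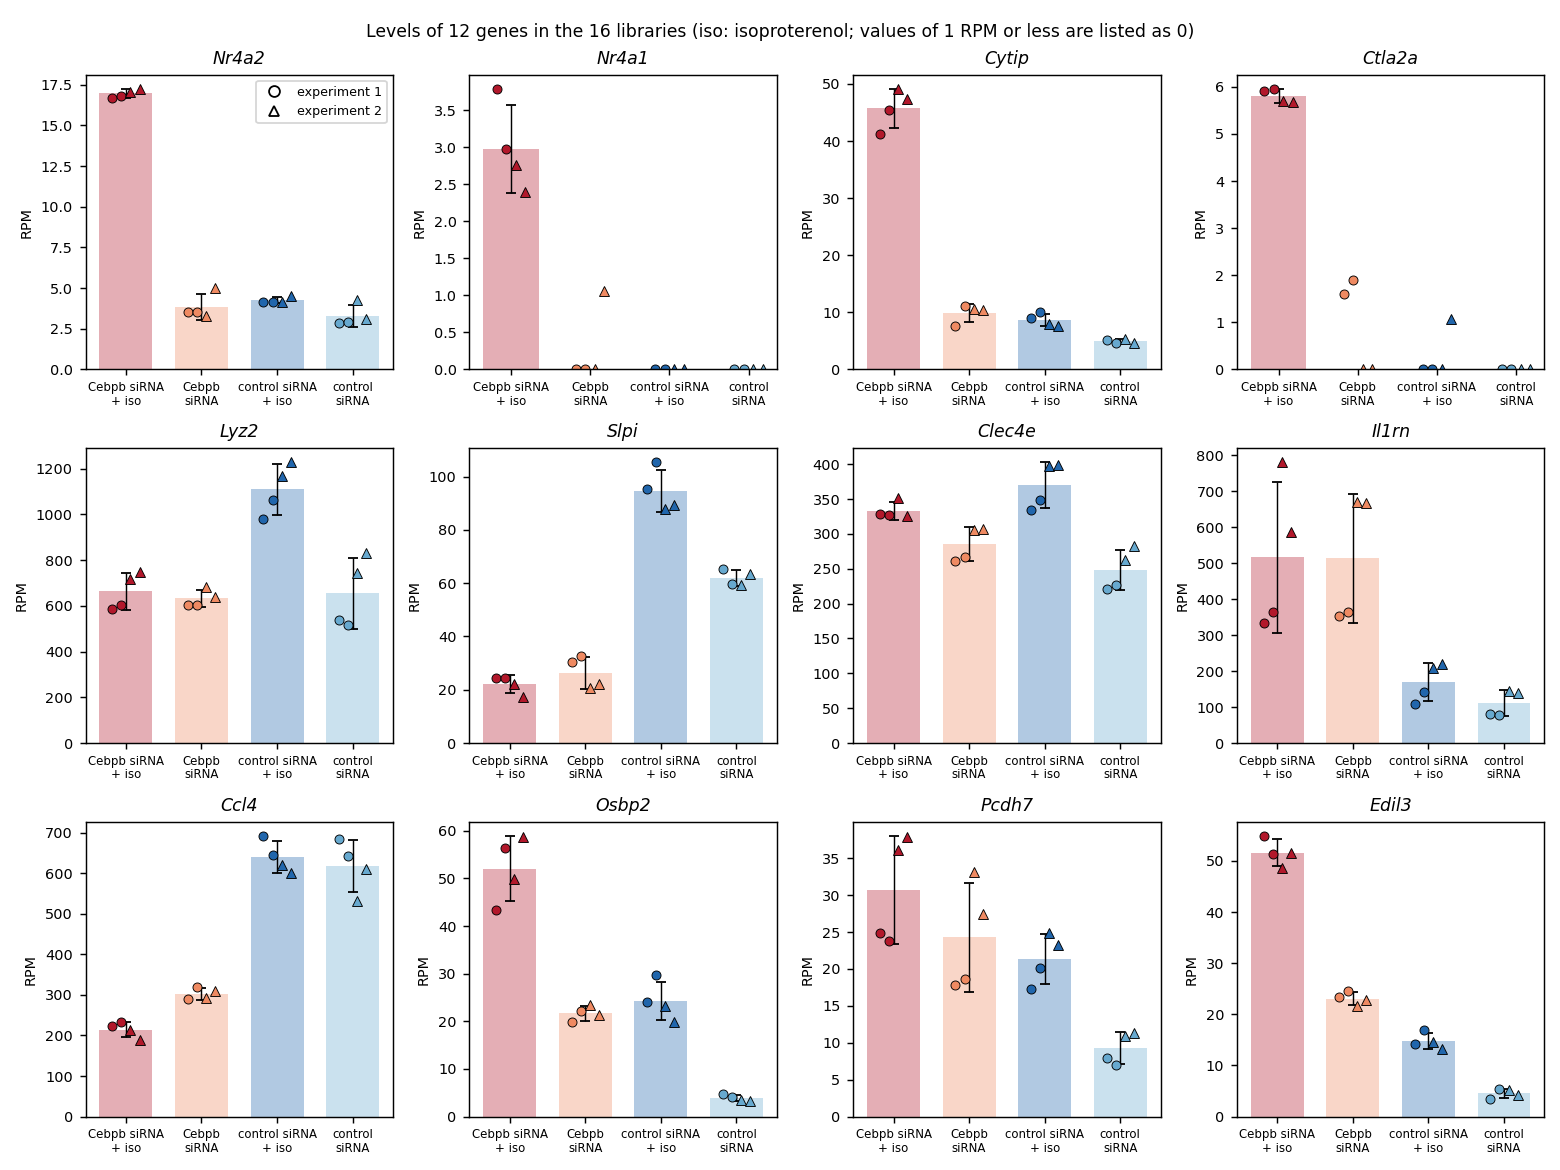
Levels (RPM) of 12 genes in each of the 16 libraries, by group, with circles for experiment 1 and triangles for experiment 2; bars are means and whiskers SD (n = 4) where all 4 libraries lie above the floor. Nr4a2, Nr4a1, Cytip and Ctla2a are high only with both treatments. Lyz2 separates by isoproterenol over both experiments in the control siRNA cultures, and in the Cebpb siRNA cultures within experiment 2 alone.

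The other 9 genes called higher were low in level, and Ccl22, a chemokine for CCR4-bearing T cells, was the only one of these besides Nr4a1 that the lists of named pathways hold. Ccl22 stood at 2.7, 4, 4.21 and 3.62 RPM in Cebpb siRNA cells with isoproterenol, at 1.13, 1.3, 1.55 and 2.12 RPM in Cebpb siRNA cells alone, and at 0 in all 8 control siRNA libraries (adjusted p of the interaction 0.0233, called in 7 of 16 fits without 1 library). The 7 genes described next had means under 10 RPM and were chosen after their values were seen. Il1r2, a decoy receptor for interleukin 1, had 13.6, 17.1, 9.68 and 12.2 RPM in Cebpb siRNA cells with isoproterenol and 5.36, 7.44, 3.06 and 1.17 RPM without. Control siRNA cells had 1.88, 2.4, 1.06 and 1.23 RPM of Il1r2 with isoproterenol, against 1.89 and 1.67 RPM in experiment 1 and 0 in both libraries of experiment 2 without it. Its groups with Cebpb siRNA did not overlap, its control siRNA groups did, and its interaction had an adjusted p of 0.037 and was called in 4 of 16 fits without 1 library.

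Ppbp, the chemokine CXCL7, had 4.45, 5.84, 3.65 and 4.84 RPM with both treatments. With 1 treatment it reached 1.51 and 1.65 RPM in Cebpb siRNA cells and 1.29 and 1.12 RPM in control siRNA cells with isoproterenol, in experiment 1 alone, and it was listed at 0 in the other libraries. Its interaction had an adjusted p of 0.000122. Ramp3, an accessory protein of the calcitonin receptor-like receptor, was above the floor in no library except the 4 with both treatments, at 2.41, 3.93, 2.95 and 2.59 RPM, and it was tested only because of them. Gfod1 had 5.11, 5.52, 5.89 and 7.29 RPM with both treatments, 1.79, 1.8, 1.67 and 2.23 RPM with Cebpb siRNA alone, and 1.16 RPM in 1 of the 8 control siRNA libraries (adjusted p = 0.000122). In each of these genes the libraries with both treatments stood apart from all others.

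Ctla2a and Ctla2b, neighbouring genes on chromosome 13, encode closely related inhibitors of cysteine proteases. Reads that fit both genes may be missing from their levels, since multimapping reads (19.4 to 22.3% of reads) were listed apart from genes. Ctla2a had 5.91, 5.96, 5.7 and 5.67 RPM with both treatments, 1.6 and 1.9 RPM in experiment 1 and 0 in experiment 2 with Cebpb siRNA alone, and 1.07 RPM in 1 of the 8 control siRNA libraries. Ctla2b had 2.7, 3.24, 3.04 and 2.3 RPM with both treatments and at most 1.19 RPM with Cebpb siRNA alone. Both genes were tested only because of the libraries with both treatments, and those libraries stood apart from all others. Dmpk, the myotonic dystrophy protein kinase, had 15.4, 16.5, 15.3 and 21.8 RPM in Cebpb siRNA cells with isoproterenol and 8.33, 7.24, 8.54 and 6.16 RPM in Cebpb siRNA cells alone. In control siRNA cells Dmpk was above the floor in 1 library of each group, at 1.11 RPM with isoproterenol and at 1.44 RPM without (adjusted p = 0.00666). With log2(RPM + 1) in place of the common floor, Ctla2a, Ctla2b, Ppbp, Gfod1, Dmpk, Ccl22 and Il1r2 were not called, as Nr4a1 was not.

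Among the genes called lower, 4 belong to the myeloid genes linked to C/EBPbeta: Lyz2, Slpi, Il1rn and Clec4e. Lyz2, the macrophage lysozyme, stood at 587, 603, 719 and 746 RPM in Cebpb siRNA cells with isoproterenol and at 602, 605, 684 and 639 RPM in Cebpb siRNA cells alone. Under control siRNA its levels were 979, 1062, 1169 and 1229 RPM with isoproterenol and 536, 515, 743 and 830.2 RPM without. Isoproterenol separated the control siRNA groups and left the Cebpb siRNA groups overlapping. Within experiment 2, however, the Cebpb siRNA libraries with isoproterenol lay above those without. The isoproterenol effect was 0.01 in Cebpb siRNA cells (adjusted p = 0.975), against 0.75 in control siRNA cells (adjusted p = 2.3e-07), and the interaction was -0.74 ± 0.09 (adjusted p = 0.000122). The interaction was -0.97 ± 0.08 in experiment 1 and -0.51 ± 0.12 in experiment 2, both past an unadjusted p of 0.05. Reads of the related gene Lyz1 could be counted as Lyz2.

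Slpi, the secretory leukocyte protease inhibitor, was the only 1 of the 25 genes with a called log2 interaction whose isoproterenol effects were both called and opposite. It had 24.5, 24.3, 22.3 and 17.1 RPM in Cebpb siRNA cells with isoproterenol and 30.5, 32.6, 20.5 and 22 RPM without. Control siRNA cells had 95.5, 105, 87.9 and 89.5 RPM with isoproterenol and 65.5, 59.7, 59.5 and 63.5 RPM without. The control siRNA groups did not overlap, and the Cebpb siRNA groups did. The effect was -0.30 ± 0.09 in Cebpb siRNA cells, just past the threshold (adjusted p = 0.0498), and 0.57 in control siRNA cells (adjusted p = 0.000559). The interaction was -0.87 ± 0.12 (adjusted p = 0.000658).

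Il1rn, the interleukin 1 receptor antagonist, differed between the experiments in level. It had 334, 364, 781 and 587 RPM in Cebpb siRNA cells with isoproterenol and 354, 363, 669.6 and 667 RPM without. Control siRNA cells had 108, 141, 209.5 and 219 RPM with isoproterenol and 81, 76.7, 146 and 139 RPM without. Within each experiment the control siRNA libraries with isoproterenol lay above those without, and the Cebpb siRNA libraries did not separate in this way. Its effect was -0.07 in Cebpb siRNA cells and 0.58 in control siRNA cells, and the interaction was -0.65 ± 0.11 (adjusted p = 0.00445).

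Clec4e encodes Mincle, a C-type lectin receptor for mycobacterial glycolipid. Cebpb siRNA cells had 328, 327, 352 and 325 RPM with isoproterenol, against 261, 267, 306 and 308 RPM without. The control siRNA groups had 334, 349, 398 and 398 RPM with isoproterenol, against 222, 226, 262 and 283 RPM without. Both arms were higher with isoproterenol without overlap, but by less in Cebpb siRNA cells, where the effect of 0.17 was not called (adjusted p = 0.0705), against 0.55 in control siRNA cells (adjusted p = 1.55e-06). The interaction of -0.37 ± 0.08 had an adjusted p of 0.0352 and was kept in 5 of 16 fits that left out 1 library, with an adjusted p of up to 0.109. Clec4d, the neighbouring lectin receptor that pairs with Mincle, lay just outside the threshold at -0.40 (adjusted p = 0.0597).

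Over the whole list of myeloid genes linked to C/EBPbeta, 13 of 20 members were tested, 0 were called higher and 4 lower, against 0.108% higher and 0.117% lower of all genes tested. Below 0 lay 11 of the 13 estimates, against 5656 of 11141 over all genes tested, and the median was -0.40, against -0.00. With isoproterenol 2 members were called higher and 1 lower in Cebpb siRNA cells, where the shares of all genes were 2.79% and 2.64%. In control siRNA cells 10 members were called higher and 0 lower, where the shares of all genes were 1.12% and 0.422%. The difference between these counts was not tested. This list, like the other lists below, was chosen with earlier results of these data known, so its counts are a description. Among members that missed the threshold, Clec4n had an interaction of -0.56, Cd14 of -0.38 and Mmp9 of -0.62. Cfp and Trem1, at 0.03 and 0.03, were called higher by isoproterenol in both arms. S100a8, a calprotectin subunit and the only neutrophil marker detected, was listed at 0 in all 4 Cebpb siRNA libraries with isoproterenol and in 3 of the 4 without. In control siRNA cells it had 5.84, 4.97, 4.44 and 4.86 RPM with isoproterenol and 2.73, 2.9, 2.28 and 3.48 RPM without. The other 6 of 7 neutrophil markers were at 0 in all 16 libraries.

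Chemokine and activation genes made up a further group of those called lower. Ccl4, an inflammatory CC chemokine, had 223, 232, 215 and 189 RPM in Cebpb siRNA cells with isoproterenol, against 289.8, 320.0, 292 and 309.6 RPM without. With control siRNA the levels were 693, 646, 621 and 601 RPM with isoproterenol, against 685, 642, 533 and 609.8 RPM without. Here the Cebpb siRNA groups separated and the control siRNA groups overlapped. Isoproterenol lowered Ccl4 in Cebpb siRNA cells, with an effect of -0.56 (adjusted p = 1.37e-05) against 0.02 in control siRNA cells, and the interaction was -0.58 ± 0.09 (adjusted p = 0.00281). Its paralog Ccl3 had an effect of -0.31 in Cebpb siRNA cells and 0.16 in control siRNA cells, and its interaction of -0.47 missed the threshold (adjusted p = 0.127).

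Ccl9, a chemokine for CCR1, resembled Lyz2 in that isoproterenol was called in control siRNA cells alone. Unlike Lyz2, Ccl9 was higher in Cebpb siRNA than in control siRNA libraries within each experiment, with and without isoproterenol. It stood at 513, 566, 813 and 813 RPM in Cebpb siRNA cells with isoproterenol and at 471, 539, 730.3 and 723 RPM without. With control siRNA it stood at 320.4, 339, 457 and 475 RPM with isoproterenol and at 205, 219, 317 and 343 RPM without. Within each experiment the control siRNA libraries with isoproterenol lay above those without, while the Cebpb siRNA libraries of experiment 1 overlapped. The effect was 0.07 in Cebpb siRNA cells (adjusted p = 0.463), against 0.53 in control siRNA cells (adjusted p = 1.24e-06). The interaction was -0.46 ± 0.07 (adjusted p = 0.0024).

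Acod1, which makes itaconate in activated macrophages, had 2.55, 3.74, 8.46 and 6.16 RPM in Cebpb siRNA cells with isoproterenol and 3.86, 3.79, 11.9 and 9.55 RPM without. Libraries of control siRNA had 11.2, 14, 32 and 27.2 RPM with isoproterenol and 8.03, 8.65, 19.2 and 23.2 RPM without. In every group the libraries of experiment 2 lay above those of experiment 1. The effect was -0.49 in Cebpb siRNA cells (adjusted p = 0.0292), against 0.50 in control siRNA cells (adjusted p = 0.0559), with an interaction of -0.99 ± 0.18 (adjusted p = 0.0153). That call was lost, at an adjusted p of up to 0.0612, without control siRNA with isoproterenol experiment 1 replicate 2 or experiment 2 replicate 1, and without control siRNA alone experiment 1 replicate 1 or experiment 2 replicate 1. Gpr84, a receptor for medium-chain fatty acids, had 24.3, 25.9, 35.6 and 32.5 RPM in Cebpb siRNA cells with isoproterenol and 28.3, 30.2, 43 and 41.8 RPM without. Gpr84 in control siRNA cells had 46.3, 50.1, 65.6 and 68.7 RPM with isoproterenol and 47, 40.5, 59 and 59.9 RPM without. Within each experiment every Cebpb siRNA library with isoproterenol lay below every one without it, and the interaction was -0.45 ± 0.09 (adjusted p = 0.0249, called in 7 of 16 fits without 1 library).

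Most members of the lists that hold these genes were not called on the log2 scale, to which the counts here refer. Over all genes tested 0.108% were called higher and 0.117% lower, and 5484 estimates were above 0 and 5656 below. In the M1 activation list, 18 of 27 members were tested, 0 were called higher and 3 lower, and 13 estimates were below 0 with a median of -0.39. Tnf, at -0.36 (adjusted p = 0.248), and Cxcl2, at -0.66 (adjusted p = 0.248), were among those not called. Among 17 chemokines and receptors tested, 1 was called higher (Ccl22) and 2 lower (Ccl4 and Ccl9), with a median of -0.25. Among 13 of 27 M2 activation genes tested, 1 was called higher (Ccl22) and 1 lower (Il1rn), with a median of 0.01. Of the NF-kB targets and regulators, 0 of 25 were called on log2, and 20 estimates were below 0 with a median of -0.12. Cd83, 1 of these 25, was called higher on the unlogged scale described below, and in 7 of 16 fits without 1 library.

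Cebpd, a C/EBP family member that binds the same DNA word as C/EBPbeta, was the only one of 7 family members tested that was called, against 0.224% of all genes. It had 19.3, 21.3, 15.6 and 15.6 RPM in Cebpb siRNA cells with isoproterenol and 22.9, 22, 15.6 and 18.7 RPM without. Under control siRNA it had 15.8, 16.3, 14.7 and 16.4 RPM with isoproterenol and 12.8, 11.6, 10.4 and 11.3 RPM without. The control siRNA groups did not overlap and the Cebpb siRNA groups did, with effects of -0.20 (adjusted p = 0.236) in Cebpb siRNA cells and 0.43 (adjusted p = 0.0132) in control siRNA cells. The interaction was -0.62 ± 0.13 (adjusted p = 0.0379), and it was called in 3 of 16 fits without 1 library. Cebpa, Cebpe, Cebpg, Cebpz and Ddit3 had interactions of 0.12, -0.03, -0.05, 0.15 and -0.14.

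Osbp2, an oxysterol-binding protein, had the most negative interaction although isoproterenol raised it in both arms. It stood at 43.4, 56.3, 49.8 and 58.7 RPM in Cebpb siRNA cells with isoproterenol and at 19.8, 22.1, 23.5 and 21.3 RPM without. Under control siRNA its levels were 24.1, 29.7, 23.2 and 19.9 RPM with isoproterenol and 4.72, 4.17, 3.52 and 3.31 RPM without. The groups with both treatments and with neither stood apart from each other and from the groups with 1 treatment, which overlapped. The effect was 1.20 in Cebpb siRNA cells (adjusted p = 1.57e-06), against 2.59 in control siRNA cells (adjusted p = 1.15e-11), and the interaction was -1.39 ± 0.17 (adjusted p = 0.000122). Both treatments together gave 52.6 scaled RPM, against 42.1 for the sum of the single effects and 137 for the product of the single folds. On the unlogged scale its interaction was positive, 0.41 times the gene mean, and was not called (adjusted p = 0.353).

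Pcdh7, a protocadherin, was also raised by isoproterenol in both arms, and by less in Cebpb siRNA cells on log2. Cebpb siRNA cells had 24.9, 23.9, 36.2 and 37.9 RPM with isoproterenol and 17.8, 18.7, 33.2 and 27.5 RPM without. The libraries with control siRNA showed 17.3, 20.1, 24.9 and 23.2 RPM with isoproterenol and 7.87, 7.02, 10.9 and 11.3 RPM without. Isoproterenol raised it by 0.30 in Cebpb siRNA cells (adjusted p = 0.0488) and by 1.19 in control siRNA cells (adjusted p = 2.8e-08), with an interaction of -0.89 ± 0.12 (adjusted p = 0.000566). Ung, which removes uracil from DNA, had 22.4, 25.8, 25.7 and 24 RPM in Cebpb siRNA cells with isoproterenol and 30.5, 39.6, 40.0 and 42.1 RPM without. The control siRNA groups had 64.9 to 90.3 RPM of Ung with isoproterenol and 71.1 to 98.2 RPM without, which overlap, and its interaction was -0.52 ± 0.11 (adjusted p = 0.044, called in 3 of 16 fits without 1 library). Cdr2 had 14.2, 16.4, 14.4 and 12.8 RPM in Cebpb siRNA cells with isoproterenol and 20.2, 23, 19.2 and 17.4 RPM without, against overlapping control siRNA groups of 31.1 to 34.6 RPM and 31.5 to 33.2 RPM. The interaction of Cdr2 was -0.51 ± 0.10 (adjusted p = 0.0284, called in 4 of those 16 fits).

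The experiments share no library, so the sign of each call could be looked up in both. All 25 called genes had the same sign in experiment 1 and in experiment 2, each with an unadjusted p under 0.05 in each experiment. Since the call over 16 libraries used both experiments, that count is a description. Experiment 1 alone called 12 of 11098 genes (0.108%), 3 higher (0.027%) and 9 lower (0.0811%), and all 12 had the same sign in experiment 2, where 11 had an unadjusted p under 0.05 and Msr1 did not. Experiment 2 alone called 2 genes (0.018%), Ctla2a and Cytip, and both had the same sign and an unadjusted p under 0.05 in experiment 1, where for Ctla2a the limit of its filter holds too. The interaction itself differed between the experiments for 0 genes by limma, with 534 at an unadjusted p under 0.05. Il1r2 had estimates of 1.02 ± 0.29 in experiment 1 and 2.40 ± 0.50 in experiment 2.

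**Figure D3:**
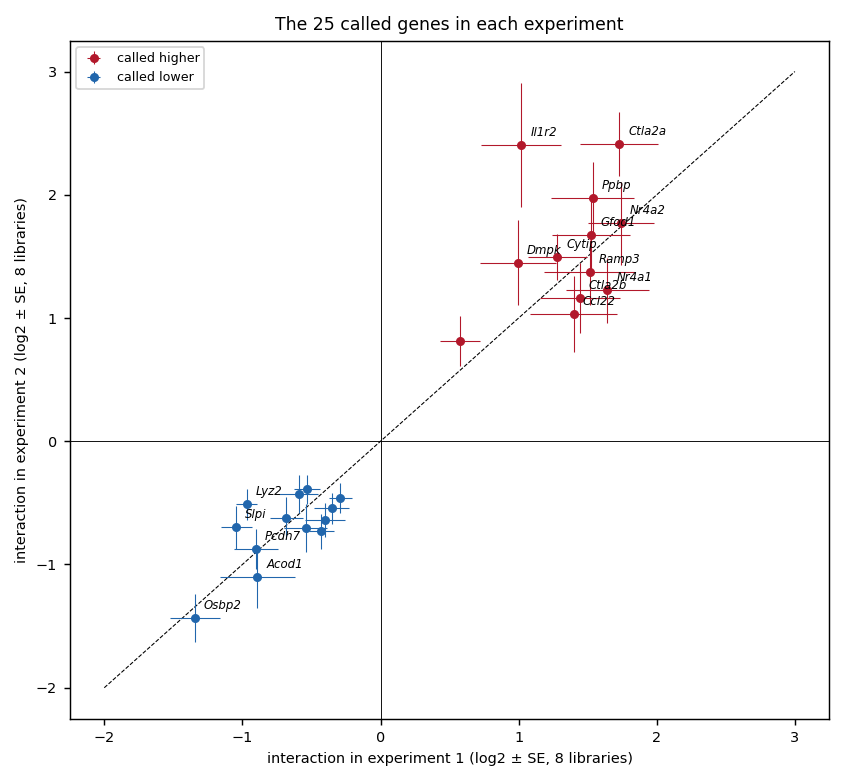
Interaction (log2, with SE) of the 25 called genes in experiment 2 (y axis) against experiment 1 (x axis), fitted on 8 libraries each, with the line of equal values. All 12 genes called higher lie above 0 and all 13 called lower lie below 0 on both axes.

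The same contrast on the unlogged scale asks whether the RPM with both treatments differed from the sum of the single effects. Here 50 genes were called (0.449%), 42 higher (0.377%) and 8 lower (0.0718%), and 819 had an unadjusted p under 0.05. Among genes above the floor in all 16 libraries 33 were called (0.338%), 28 higher (0.287%) and 5 lower (0.0513%). In all 59 genes were called on either scale, 16 on both, 9 on log2 alone and 34 unlogged alone, and 0 genes were called on both with opposite signs. All 12 genes called higher on log2 were also called unlogged, against 4 of the 13 called lower (Slpi, Lyz2, Gpr84 and Clec4e). The unlogged calls of Gpr84 and Clec4e were each kept in 3 of 16 limma fits without 1 library, with adjusted p of up to 0.139, and both were lost with the values as deposited. That of Gpr84 was also lost with median ratio scaling. Cytip had the smallest adjusted p unlogged (8.36e-10), with an interaction of 1.86 ± 0.10 times its mean level. Unlogged, experiment 1 alone called 30 genes (0.27%), 24 higher (0.216%) and 6 lower (0.0541%), and experiment 2 alone 11 genes (0.0991%), all higher.

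**Figure D4:**
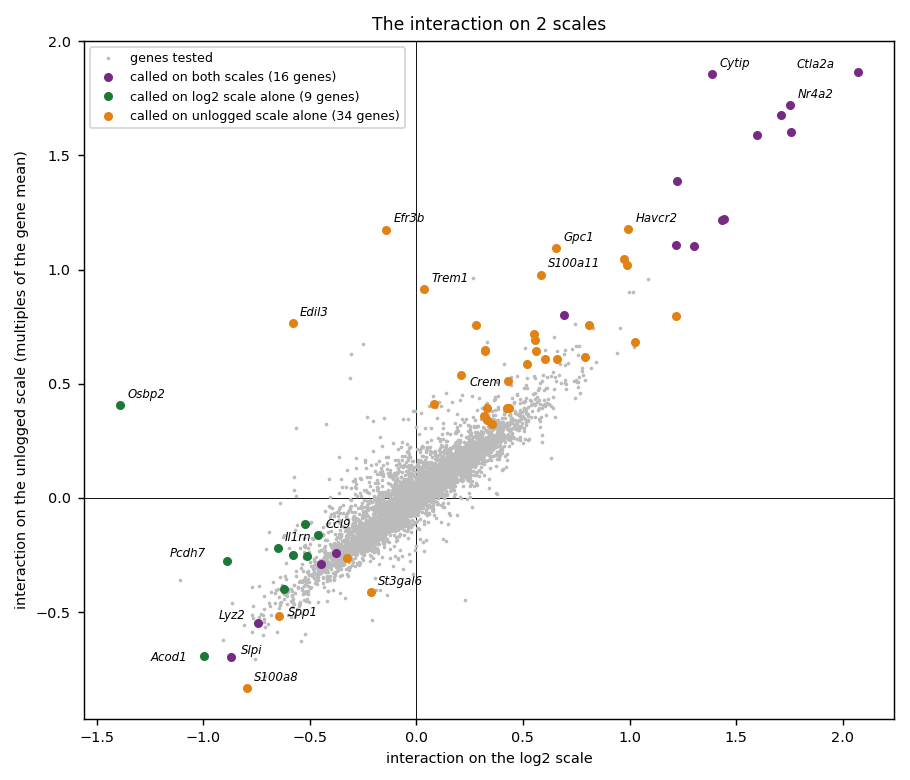
Interaction on the unlogged scale in multiples of the gene's mean level (y axis) against that on the log2 scale (x axis), 1 point a gene tested, with called genes in colour. Osbp2 and Edil3 lie left of 0 and above 0, where the combination fell short of the product of the folds and exceeded the sum of the effects.

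Of the 30 genes called higher unlogged alone, 26 were also higher with Cebpb siRNA without isoproterenol and 3 lower. Of all genes tested, 31.3% were higher and 29.6% lower in that comparison. Where the isoproterenol fold is equal in both arms, a gene raised by both treatments, or lowered by both, has a positive unlogged interaction. The set was chosen as not called on log2 and shares libraries with that comparison. Its counts were thus largely fixed in advance and are a description. Trem1, a receptor that amplifies inflammatory signalling, is an example of the genes also higher with Cebpb siRNA. It had 29.4, 29.9, 38 and 33.4 RPM in Cebpb siRNA cells with isoproterenol and 13.1, 16.1, 15.1 and 15.4 RPM without. With control siRNA the levels were 6.73, 8.53, 6.89 and 8.76 RPM with isoproterenol and 3.04, 3.16, 5.11 and 3.62 RPM without. All 4 groups stood apart. The fold of isoproterenol was close to equal in both arms (interaction 0.03 on log2, adjusted p = 0.994), while the gain in RPM was larger in Cebpb siRNA cells (unlogged interaction 0.91 ± 0.12 times the mean, adjusted p = 0.000124; 0.0751 by limma with weights by the inverse square of the level). Both treatments gave 33.0 scaled RPM, against 19.4 for the sum and 31.7 for the product.

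Gpc1, a cell-surface heparan sulfate proteoglycan, and S100a11, a calcium-binding protein, exceeded both rules in their estimates. Gpc1 had 59.9, 61.8, 62.5 and 46.8 RPM in Cebpb siRNA cells with isoproterenol and 28.4, 25.2, 23.7 and 21.2 RPM without, against 11.1, 12.8, 13.8 and 13.8 RPM and 8.03, 8.17, 10.3 and 8.71 RPM in control siRNA cells with and without it. The groups did not overlap. Its unlogged interaction was 1.09 ± 0.13 (adjusted p = 6.71e-05) and its log2 interaction 0.66 (adjusted p = 0.0901). S100a11 had 39.1, 45.4, 39.5 and 50.7 RPM and 18.1, 24.1, 16.6 and 17.7 RPM in Cebpb siRNA cells with and without isoproterenol, against 10.9, 13.8, 12 and 11.5 RPM and 9.39, 8.61, 7.15 and 6.97 RPM in control siRNA cells. Its unlogged interaction was 0.98 ± 0.13 (adjusted p = 0.000394), and on log2 it was 0.58 (adjusted p = 0.196). Havcr2, the immune checkpoint receptor TIM-3, had 25.8, 29.9, 27.8 and 33.5 RPM and 12.8, 13.1, 15.4 and 11.7 RPM in Cebpb siRNA cells with and without isoproterenol. Under control siRNA Havcr2 had 5.64, 3.44, 4.58 and 5.07 RPM with isoproterenol and 5.35, 3.42, 3.87 and 4.47 RPM without, which overlap. Its log2 interaction of 0.99 lay just outside the threshold over all genes tested (adjusted p = 0.057) and just inside over genes above the floor in all 16 libraries (adjusted p = 0.0484).

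Edil3, a secreted integrin ligand, lay between the rules as Osbp2 did. It had 54.9, 51.4, 48.5 and 51.5 RPM in Cebpb siRNA cells with isoproterenol and 23.3, 24.6, 21.6 and 22.8 RPM without. Libraries of control siRNA had 14.2, 16.9, 14.7 and 13.3 RPM with isoproterenol and 3.52, 5.31, 5.16 and 4.15 RPM without. The 4 groups did not overlap. The unlogged interaction was positive, 0.77 ± 0.08 (adjusted p = 8.83e-06, or 0.189 with those weights), whereas the log2 estimate was negative, -0.58 (adjusted p = 0.196). The measured 52.1 scaled RPM lay above the sum of 33.9 and below the product of 77.0 RPM.

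Efr3b, which anchors a phosphatidylinositol kinase complex at the plasma membrane, was lowered by both treatments. It had 1.68, 1.59, 1.82 and 1.42 RPM in Cebpb siRNA cells with isoproterenol and 3.58, 5.14, 4.45 and 4.78 RPM without. Under control siRNA it had 8.66, 9.89, 8.69 and 12.4 RPM with isoproterenol and 26.4, 24.1, 25 and 23.7 RPM without. The groups stood apart in steps, and the log2 interaction was -0.14 (adjusted p = 0.957). The sum of the single effects would lie at -10.2 scaled RPM, which no level can reach, and the unlogged interaction was 1.17 ± 0.11 (adjusted p = 3.46e-06, or 0.16 with those weights). The measured 1.64 RPM was near the product of the folds, 1.83 RPM.

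Of the 4 genes called lower unlogged alone, Msr1, a scavenger receptor, had 307, 336, 435 and 443 RPM in Cebpb siRNA cells with isoproterenol and 301, 322, 404 and 342 RPM without. The libraries with control siRNA showed 511, 583, 667 and 653 RPM with isoproterenol and 376, 372, 515 and 521 RPM without. Within each experiment the control siRNA libraries separated, and the unlogged interaction was -0.26 ± 0.05 (adjusted p = 0.0233). St3gal6, a sialyltransferase, had 27.8, 33.8, 27 and 28.5 RPM and 45.4, 42.1, 39.9 and 42.6 RPM in Cebpb siRNA cells with and without isoproterenol, and 13.6, 16.3, 13 and 13 RPM and 18.9, 21.2, 15.7 and 15.8 RPM in control siRNA cells. It fell in both arms, by more RPM in Cebpb siRNA cells, with -0.41 ± 0.08 unlogged (adjusted p = 0.0233) and -0.21 on log2 (adjusted p = 0.867). The others were S100a8 (adjusted p = 0.0233), described above, and Spp1, which encodes osteopontin. S100a8 was at the floor in nearly all Cebpb siRNA libraries, where a fall with isoproterenol could not show. Its call was lost in each experiment alone and with weights by the inverse square of the level. Spp1 had 408, 384, 485 and 496 RPM and 347, 401, 492 and 729 RPM in Cebpb siRNA cells with and without isoproterenol, against 804, 811, 973 and 1144 RPM and 514, 568, 713 and 826 RPM in control siRNA cells (unlogged -0.52 ± 0.11, adjusted p = 0.0433). The calls of Msr1 and St3gal6 were each kept in 7 of 16 limma fits without 1 library, that of S100a8 in 9 and that of Spp1 in 5, with adjusted p of up to 0.112.

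**Figure D5:**
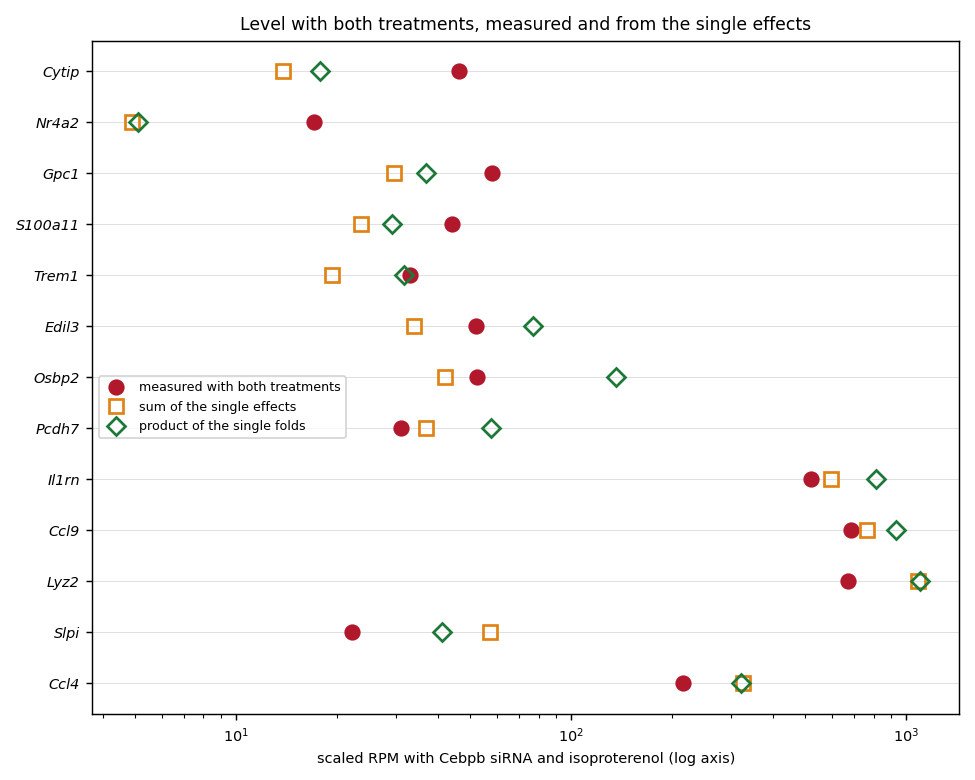
Level with both treatments (filled circles, scaled RPM, log axis) for 13 genes, beside the sum of the single effects (squares) and the product of the single folds (diamonds). Cytip and Nr4a2 lie to the right of both, Slpi and Ccl4 to the left of both, and Osbp2 and Edil3 between them.

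Most of the wider cyclic AMP response was not called with Nr4a1 and Nr4a2. Of 31 genes in the cAMP and CREB response list, 24 were tested, 2 were called higher on log2 (Nr4a2, and Nr4a1 with the limit given above) and 0 lower, with a median interaction of 0.05, against 0.108% and 0.117% of all genes and a median of -0.00. Isoproterenol called 11 of them higher and 0 lower in Cebpb siRNA cells, where the shares of all genes were 2.79% and 2.64%, and 6 higher and 1 lower in control siRNA cells, where they were 1.12% and 0.422%. Crem, a cyclic AMP-induced repressor, had 31, 26, 26 and 27.2 RPM in Cebpb siRNA cells with isoproterenol and 11.9, 14.1, 10.5 and 14 RPM without, against 13.1, 14.4, 14.7 and 15.3 RPM and 7.71, 7.86, 7.05 and 8.08 RPM in control siRNA cells. It rose in both arms, by 1.08 and 0.87, and its interaction was 0.21 on log2 (adjusted p = 0.899) and 0.54 unlogged (adjusted p = 0.0191, called in 9 of 16 fits without 1 library). The unlogged call of Crem was lost with weights by the inverse square of the level. Klf4, a zinc finger factor, was likewise called unlogged alone, at 0.61 (adjusted p = 0.0054) with 0.60 on log2 (adjusted p = 0.196). Fos, the immediate early partner of Jun, had the opposite sign on log2.

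Fos stood at 48.4, 47.6, 56.8 and 56 RPM in Cebpb siRNA cells with isoproterenol and at 21.4, 24.4, 31.5 and 33.9 RPM without. With control siRNA it stood at 24.5, 24.1, 26.8 and 23 RPM with isoproterenol and at 8.4, 6.59, 11.7 and 9.47 RPM without. It rose in both arms, by 0.87 in Cebpb siRNA cells (adjusted p = 2.18e-05) and by 1.44 in control siRNA cells (adjusted p = 2.8e-08), and the interaction of -0.57 ± 0.15 was not called (adjusted p = 0.196). Fosl2, Pde4b and Odc1 rose with isoproterenol in both arms too. Their interactions were 0.03, -0.02 and -0.25, none called.

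Components of the beta-adrenergic pathway gave no call on log2. Of 32 genes listed 26 were tested, with 0 called, against 0.224% of all genes, and a median of 0.07. Gnas, which encodes the stimulatory G protein, had an interaction of 0.22 (adjusted p = 0.576). Pde3b, a phosphodiesterase that degrades cyclic AMP, was called unlogged (0.64, adjusted p = 0.0372, called in 5 of 16 fits without 1 library). It stood at 14.6, 13.5, 17 and 14.6 RPM in Cebpb siRNA cells with isoproterenol and at 6.16, 6.64, 4.89 and 6.47 RPM without, against 9.1, 10.4, 6.2 and 8.38 RPM and 4.88, 4.92, 5.9 and 4.65 RPM in control siRNA cells. It rose with isoproterenol in both arms, by 1.25 (adjusted p = 7.41e-06) in Cebpb siRNA cells and by 0.69 (adjusted p = 0.0102) in control siRNA cells.

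In the other lists calls on log2 were absent or were genes described above, against 0.224% of all genes tested. Osbp2 was 1 of 18 lipid handling genes tested, and Lyz2 was 1 of 22 macrophage identity genes. Clec4a2, another macrophage identity gene, was called higher unlogged alone, and in 12 of 16 fits without 1 library. By limma, 0 genes were called on log2 among 36 interferon response, 36 cell cycle, 17 antigen presentation, 21 ATF4 response, 22 cholesterol synthesis, 24 glycolysis and hypoxia, 22 MAPK feedback, 21 lysosome, 7 osteoclast and 24 oxidative phosphorylation genes tested. Their median interactions were 0.00, -0.10, -0.05, -0.06, 0.07, -0.09, -0.09, -0.09, -0.07 and 0.03. Isoproterenol called 16 cell cycle genes lower in Cebpb siRNA cells, against 3 in control siRNA cells, where 2.64% and 0.422% of all genes tested were called lower in those arms. Of the 36 interactions 27 were below 0, against 5656 of 11141 over all genes tested. Since none of them passed the test of the difference, the arms were not shown to differ for these genes. Lpl, lipoprotein lipase, lay nearest to the threshold among the lipid genes at -0.42 (adjusted p = 0.072). It had 168, 174, 231 and 176 RPM in Cebpb siRNA cells with isoproterenol and 346, 369, 487 and 441 RPM without, against 524, 564, 689.8 and 751 RPM and 905, 864, 1226 and 1213 RPM in control siRNA cells.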

How the data were processed

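Total RNA of 16 cultures was sequenced with a 3′ end kit (Lexogen QuantSeq 3′ FWD), per the labels' protocols. The submitters' processing notes name STAR 2.5.3a and the build GRCm38. The sources used here do not name the read counter or say whether it used strand. The deposited values are log2 RPM per gene, in which 1 RPM or less is listed as 0; the reads behind them came out whole within 0.1 for 100.0% of values in each library. The 4 summary entries that name no gene hold unmapped, multimapping, ambiguous and no-feature reads, and were left out of tests. Libraries were rescaled by a trimmed mean of log ratios (30% of ratios, 5% of levels) and set to a common floor of 1.084 RPM. limma 3.58.1 (R 4.3.3; trend, robust) was fitted with group and experiment as terms, Benjamini-Hochberg adjustment and a threshold of 0.05. Because the deposited unit is log2, no count model was used. The unlogged fit used scaled RPM divided by the gene's mean. The code was tested on simulated data. Genes were named where the log2 interaction was called with a mean of at least 10 RPM, plus those called unlogged alone and members of 20 gene lists; others named were chosen after their values were seen. The members and lists were chosen with earlier results of these data known. Of the genes tested, 10995 matched 1 GENCODE gene by symbol; of the genes described, Cytip, Gpr84, Il1r2, Osbp2, Pcdh7, Ramp3, Trem1, Gpc1, St3gal6, Efr3b, Crem, Pitpnc1, Gnas, Cebpa, Cebpb, Cebpd, Cebpg and Cebpz overlap a gene on the other strand, whose reads could not be told apart without strand. Ctla2a, Ctla2b, Il1r2, Pcdh7, Slpi, Spp1, Dmpk, Gpc1, Odc1, Gnas, Cebpg and Clec4a2 overlap an annotated gene on their own strand, which strand would not tell apart. Alternatives were other scalings and floors, no experiment term, a replicate block, each experiment alone and each library left out.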

Additional observations from a re-analysis of the deposited data

Results flagged for a closer look

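The isoproterenol effect differed between the siRNA arms, by the test of the difference itself, for 25 genes on the log2 scale and for 50 genes on the unlogged scale, all as described above. On each scale 4 of these (Nr4a1, Ramp3, Ctla2a and Ctla2b) were tested only because of the libraries with both treatments. Single libraries also stood apart within groups of 4, by Dixon's test at the 95% level, in 8 of 219 groups checked, where chance gives about 1 in 20. Nr4a2 had such a library in 3 groups: Cebpb siRNA alone in experiment 2 replicate 2 (4.99 RPM), control siRNA with isoproterenol in experiment 2 replicate 2 (4.54 RPM) and control siRNA alone in experiment 2 replicate 1 (4.27 RPM). None of them reached the lowest Nr4a2 value with both treatments, 16.7 RPM. In Cebpb siRNA cells with isoproterenol, Gpc1 was low in experiment 2 replicate 2 (46.8 RPM), Pitpnc1 was low in the same library (31.4 RPM), Ahnak was high in experiment 1 replicate 1 (271.0 RPM) and Clec4e was high in experiment 2 replicate 1 (352.0 RPM). Sdcbp2 was high in control siRNA alone in experiment 1 replicate 2 (1.62 RPM).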

How the results depend on the processing

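No called gene changed sign under any alternative. The log2 interaction called 21 genes with the values as deposited, 25 with median ratio scaling, 19 with log2(RPM + 1) and 22 when genes above the floor in 1 library were tested. Without the experiment term it called 10 genes over all tested and 3 over genes above the floor in all 16 libraries; unlogged 23 and 14 were called, and isoproterenol called 197 genes in Cebpb siRNA cells and 44 in control siRNA cells. Experiment 1 alone gave 12 log2 and 30 unlogged calls and isoproterenol counts of 248 and 104. Experiment 2 alone gave 2 log2 calls (2 above the floor in all 16), 11 unlogged (11) and isoproterenol counts of 144 and 19. limma without trend or robust estimation called 7 log2 and 21 unlogged genes above the floor in all 16, and 111 for isoproterenol in control siRNA cells. Weights by the inverse square of the level, chosen after seeing the data, gave 31 unlogged calls. Calls lost with these weights included those of Trem1, Edil3, Efr3b, St3gal6, S100a8, Spp1, Crem and Pde3b. The unlogged calls of Gpr84, Il1r2, Dmpk, Cd83 and Clec4a2 were lost with them too. Leaving out 1 library gave 17 to 28 log2 calls (9 to 19 above the floor in all 16), 34 to 56 unlogged calls (20 to 43), 424 to 563 and 98 to 242 isoproterenol calls in Cebpb siRNA and control siRNA cells, and 0 to 17 genes whose interaction differed between experiments, the 17 without Cebpb siRNA experiment 2 replicate 1. Among genes above the floor in all 16, log2 calls fell to 10 without control siRNA with isoproterenol experiment 1 replicate 2 or experiment 2 replicate 1. They numbered 11 without its experiment 2 replicate 2, without control siRNA alone experiment 2 replicate 2 or without Cebpb siRNA with isoproterenol experiment 2 replicate 1, and 9 without control siRNA alone experiment 2 replicate 1. Unlogged calls there numbered 21 without control siRNA alone experiment 1 replicate 2 or experiment 2 replicate 2 and 20 without control siRNA with isoproterenol experiment 2 replicate 1. Isoproterenol calls in control siRNA cells numbered 98 and 111 without control siRNA alone experiment 1 replicate 1 and experiment 2 replicate 2, and 113 and 107 without control siRNA with isoproterenol experiment 2 replicates 1 and 2. In each case the cause was not tested. Replicate numbers did not pair the samples (correlations of deviations -0.225 to 0.278). With a replicate block 25 genes were called on log2, 22 of them shared, 12 above the floor in all 16, 44 unlogged and 29 unlogged above the floor in all 16, with isoproterenol counts of 542 and 149. Il1r2, Ung, Cebpd, Cdr2, Clec4e, Ccl22, Gpr84, Acod1 and Neurl3 lost their call in at least 1 fit without 1 library, with adjusted p up to 0.135. Depth limits the genes near the floor, whose log2 values depend on where it is set.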
